A study of Mus musculus with 7 samples.

Results

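The genes described here are 34 integrin and adhesion genes, given as a list of symbols that was drawn up with earlier results of these data known. They are 26 integrin subunits (18 alpha and 8 beta), the ligands and counter-receptors Icam1, Icam2, Pecam1 and Selplg, and the activation machinery Tln1, Fermt3, Rap1a and Rap1b. In the series table of 25469 genes 33 of them were found by symbol. Itgb6 was found by its gene identifier in the count tables and had no count in any of the 7 libraries. After a filter on low counts 30 of the 34 genes were tested, among 13904 genes in all.

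RNA-sequencing compared splenic CD4+CD25+ cells, the surface phenotype of regulatory T cells (Tregs), between 3 libraries of aged mice (18 months) and 4 libraries of young mice (8 weeks). All mice were wild-type (WT), and the study's methods describe male C57BL/6 animals. The methods name a regulatory T cell isolation kit for the cells given to other mice, and how the sequenced cells were isolated is not given in the sources used here. The labels call the libraries biological replicates, name no treatment and do not say how many animals gave 1 library.

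Integrins are adhesion receptors made of an alpha and a beta subunit, and the pairing decides the ligand. Itgae (alpha E, CD103) pairs with Itgb7 and binds E-cadherin on epithelium, Itga4 pairs with Itgb7 or Itgb1 and binds MAdCAM-1 and VCAM-1 on vessels, and Itgal with Itgb2 forms LFA-1, which binds ICAMs. Talin and kindlin-3 bind the beta tail and switch integrins to the high-affinity state under control of the small GTPase RAP1. Tregs are known to carry CD103 in tissues and to use the integrin of Itgav and Itgb8 to activate latent TGF-beta.

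Gene counts were 10734234 to 13649310 per library, and a count of 3 equalled 0.21 to 0.302 CPM (counts scaled to library size, on the TMM scale of edgeR). The cells carried Treg genes: Foxp3 was 515 ± 93.1 CPM (SD, n = 3) in aged and 445 ± 61.7 (n = 4) in young libraries, with an adjusted p of 0.409 in edgeR's quasi-likelihood test. Other annotated genes overlap 31.5% of the Foxp3 exon bases. Cd4 had an adjusted p of 0.117 and Il2ra, which encodes CD25, of 0.0588. Of 9 T cell and Treg markers, these 3 among them, 1 was called higher and none lower (11.1%, against 16.7% of all genes tested). The log2 fold change was positive for 7 of the 9, and 5 had an unadjusted p under 0.05 (32.7% of all genes tested). Whether the share of Tregs differed between the ages was not tested. Genes of other cells were present in every library. Erythroid genes summed to 13199 to 160700 CPM in aged and 12602 to 119699 CPM in young libraries, and 11 neutrophil genes to 5437, 1957 and 754 CPM in aged replicates 1, 2 and 3 against 276 to 970 CPM in young libraries.

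In aged CD4+CD25+ libraries 3 integrin and adhesion genes rose and 7 fell (adjusted p under 0.05, edgeR, Benjamini-Hochberg over all genes tested). Itgae rose the most, to 3.71-fold of the young level, and the TGF-beta-activating subunit Itgb8 and the LFA-1 ligand Icam1 rose 2.11-fold and 1.59-fold. The subunits Itga9, Itga6, Itgad, Itgb3 and Itga5 fell to between 38.1% and 57.2% of the young level, and the counter-receptors Icam2 and Pecam1 to 59.7% and 64.7%. The main leukocyte subunits Itgal, Itgb2, Itgb1, Itgb7 and Itga4 and the activation machinery Tln1, Fermt3, Rap1a and Rap1b did not pass the test.

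The 10 called genes were 33.3% of the 30 tested, where 16.7% of all genes tested were called (9.8% higher and 6.94% lower). By role, 1 of 16 alpha subunits tested rose and 4 fell, 1 of 6 beta subunits rose and 1 fell, and 1 of 4 ligands and counter-receptors rose and 2 fell. None of the 4 genes of the activation machinery was called by edgeR, while 1 of them, Tln1, had an unadjusted p under 0.05 and was called by DESeq2 and limma voom. The median log2 fold change of the 30 genes was -0.19, and that of all genes tested was 0.02. In 15 of the 30 genes (50%) the groups did not overlap, 4 of them higher and 11 lower in aged libraries, against 29.9% of all genes tested. With a log2 fold change of at least 1 in size also required, 3 of the 30 genes were called (Itgae and Itgb8 higher and Itga9 lower). Among all genes tested these were 1017 of 13904 (7.31%), so with this threshold the 2 shares were closer than without it. Of the 13 genes with a mean of at least 100 CPM, 1 rose and 2 fell. In bulk RNA, fewer cells of a type and less RNA per cell cannot be told apart.

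**Figure D1:**
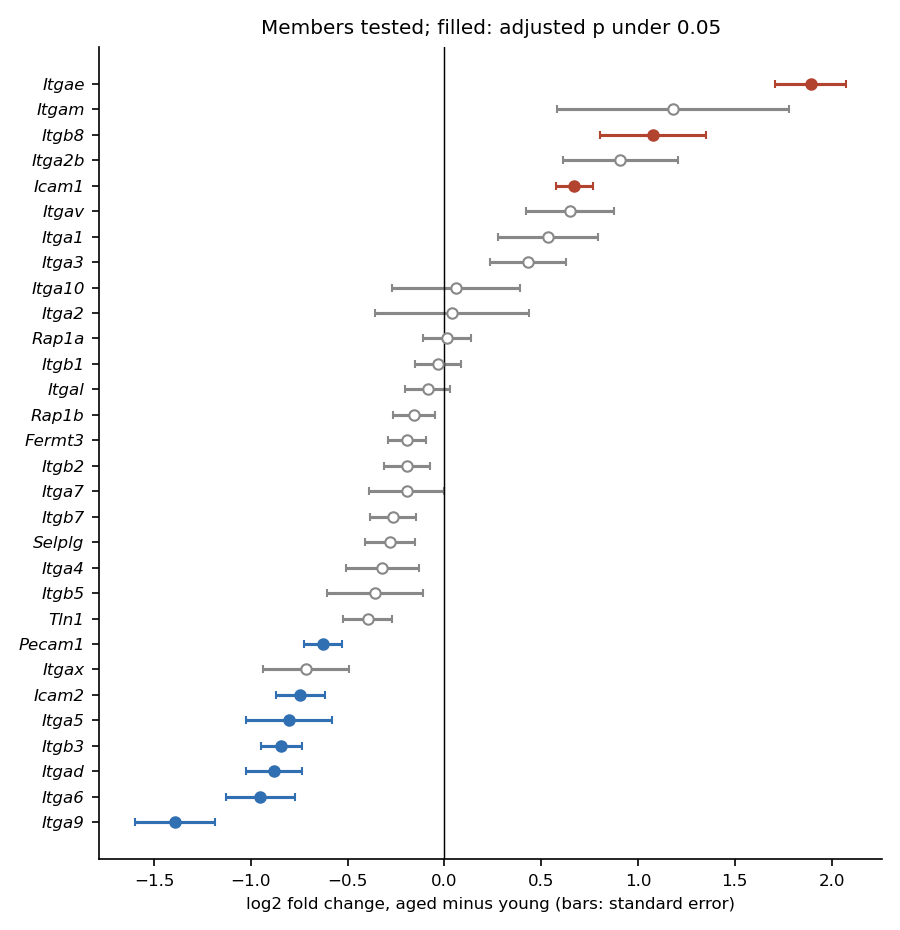
Log2 fold change (aged minus young, horizontal axis) of the 30 integrin and adhesion genes tested, with bars of 1 standard error and filled points for an adjusted p under 0.05. Itgae stands at the top at 1.89 and Itga9 at the bottom at -1.39, and 7 of the 10 filled points lie below 0.

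The promoters shown are those of the called genes whose 250 bases before the RefSeq start lay outside annotated exons, Icam1 among the genes that rose and Itga5 among those that fell. RefSeq (GRCm38.p6) held a window for 22 of the 34 genes and for 4 of the 10 called. The Icam1 window is chr9:21015690-21015939 on the plus strand and the Itga5 window is chr15:103366792-103367041 on the minus strand, each printed 5′ to 3′ with motif matches in capitals. The motifs searched on both strands were NF-kappa B (GGAAATTCC), STAT (TTCNNNGAA), GC box (GGGCGG), RUNX (TGTGGT), ETS (CCGGAAGT), AP-1 (TGANTCA) and TCF (TCAAAG).
Icam1: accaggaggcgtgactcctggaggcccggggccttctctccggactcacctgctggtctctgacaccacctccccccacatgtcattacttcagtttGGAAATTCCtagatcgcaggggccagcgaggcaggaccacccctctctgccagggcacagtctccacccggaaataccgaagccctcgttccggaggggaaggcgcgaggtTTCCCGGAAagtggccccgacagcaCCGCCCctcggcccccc
Itga5: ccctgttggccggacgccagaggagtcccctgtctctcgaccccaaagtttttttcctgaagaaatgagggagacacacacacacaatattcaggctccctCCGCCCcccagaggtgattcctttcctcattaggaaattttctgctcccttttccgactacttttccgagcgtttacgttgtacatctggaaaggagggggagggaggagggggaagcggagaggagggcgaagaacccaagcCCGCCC

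In the Icam1 window the NF-kappa B letters stand at -153 to -145 from the start, the STAT letters at -42 to -34 and a GC box at -17 to -12. Of 32851 RefSeq windows of this length, 0.286% hold these NF-kappa B letters, 7.02% the STAT letters and 32.7% a GC box. The Itga5 window holds GC boxes at -149 to -144 and at -6 to -1, and none of the other 6 motifs. RUNX letters are in 14% of windows, TCF in 13.8%, AP-1 in 6.75% and ETS in 2.88%, and no match of these 4 is in either window printed. A match is a description of the letters only.

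Among the alpha subunits, Itgae (chr11:73090583-73147446, GRCm38) encodes the CD103 chain. It was 174, 165 and 201 CPM in the aged libraries and 56.4, 57.6, 46.7 and 33.4 CPM in the young ones. The lowest aged library lay far above every young library. Itgae rose by a log2 fold change of 1.89 (SE 0.18, adjusted p = 0.000898), and the gene was called in all 17 alternative fits.

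Itga9 (chr9:118606690-118901003) encodes the alpha 9 chain, a receptor of tenascin-C and osteopontin. It was low, at 3.40, 4.32 and 5.51 CPM in aged against 11.3, 11.7, 13.4 and 10.02 CPM in young libraries, with no overlap. It fell by 1.39 on the log2 scale (SE 0.21, adjusted p = 0.0040).

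Itga6 (chr2:71745616-71858416), the laminin-binding alpha 6 chain, was 136, 94.4 and 84.7 CPM in aged and 223, 224, 192 and 173 CPM in young libraries. Aged replicate 1 was the highest aged library and still lay below all young ones. Itga6 fell by 0.95 on the log2 scale (SE 0.18, adjusted p = 0.0106).

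Itga5 (chr15:103344286-103366763), which with Itgb1 forms the classical fibronectin receptor, was 8.98, 6.63 and 5.88 CPM in aged and 10.8, 10.2, 15.8 and 13.2 CPM in young libraries. The groups did not overlap, but aged replicate 1 and young replicate 2 were close. Itga5 fell by 0.80 on the log2 scale (SE 0.22, adjusted p = 0.0405). The call held in 10 of 17 alternatives, and was lost on leaving out aged replicate 2 or 3 or young replicate 1, 3 or 4, with adjusted p from 0.0674 to 0.13, with library size only (adjusted p = 0.0516) and with GC content and gene length trends removed (adjusted p = 0.0513).

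Itgam, Itgax and Itgad lie side by side on chromosome 7 and encode the CD11b, CD11c and CD11d chains, beta 2 partners known from myeloid and dendritic cells. Itgad (chr7:128154376-128223816) was 8.55, 9.85 and 9.53 CPM in aged and 14.9, 18.3, 15.8 and 19.6 CPM in young libraries. All aged libraries were below all young ones, and Itgad fell by 0.88 on the log2 scale (SE 0.15, adjusted p = 0.00635). Other annotated genes overlap 19.7% of its exon bases.

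Itgax was 14.7, 10.8 and 20.5 CPM in aged and 24.2, 20.3, 28.4 and 27.8 CPM in young libraries, so that aged replicate 3 and young replicate 2 overlapped. The log2 fold change of -0.72 (SE 0.22) had an adjusted p of 0.0592. Without aged replicate 3 it was -0.98 with an adjusted p of 0.0306, and without young replicate 2 it was -0.81 with an adjusted p of 0.0489. Of 8 dendritic cell markers, Clec9a, Cd209a and Siglech fell, Zbtb46 rose and 4 were not called. Their sum was 111 to 174 CPM in aged and 165 to 216 CPM in young libraries, no marker was at 0 in all libraries, and Cd209a had no count in aged replicate 1. Macrophage and monocyte markers summed to 401 to 628 CPM in aged and 480 to 592 CPM in young libraries, with Adgre1 and Csf1r lower and the other 9 of 11 not called. The part of these cells in the Itgax and Itgad values was not tested.

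Itgam was 18.6, 6.84 and 4.203 CPM in aged and 4.01, 1.26, 6.70 and 5.51 CPM in young libraries. Aged replicate 1 was the highest library, and the other aged libraries lay near or within the young range. The log2 fold change of 1.18 (SE 0.60) had an adjusted p of 0.211, and without aged replicate 1 it was 0.33. Other annotated genes cover 68.7% of the Itgam exon bases, so its counts may be incomplete. Of 11 neutrophil markers 5 rose and none fell, none was at 0 in any library, and aged replicate 1 had their highest sum. All 11 had a positive log2 fold change, with a median of 2.00. All 11 also had an unadjusted p under 0.05 in edgeR, against 32.7% of all genes tested. The part of neutrophils in the Itgam values was not tested.

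Itgav, the alpha chain shared by Itgb3, Itgb5, Itgb8 and Itgb1, was 68.7, 40.9 and 89.9 CPM in aged and 44.9, 44.1, 44.1 and 36.5 CPM in young libraries. Aged replicate 2 lay within the young range and the other aged libraries lay above it. For Itgav, the log2 fold change of 0.65 (SE 0.23) had an adjusted p of 0.0861. Without aged replicate 2 it was 0.90, with an adjusted p of 0.00795. Over the 7 fits with 1 library left out it ranged from 0.37 to 0.90. The adjusted p reached 0.29, and the gene was called in 1 of these 7 fits.

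Itga2b, the platelet alpha IIb chain, was 8.81, 16.3 and 18.1 CPM in aged and 7.85, 4.76, 8.59 and 9.44 CPM in young libraries. Only aged replicate 1 overlapped the young range. The log2 fold change of 0.91 (SE 0.30) had an adjusted p of 0.0715, and without aged replicate 1 it was 1.16 with an adjusted p of 0.0186. Of 10 platelet and megakaryocyte markers 8 were tested, Ppbp and Treml1 rose and none fell. Their sum was 22.0 to 38.0 CPM in aged and 11.2 to 15.5 CPM in young libraries, and none was at 0 in any library. Their part in the Itga2b values was not tested.

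Itgal (alpha L) was 600 ± 52.9 CPM (SD, n = 3) in aged and 637 ± 41.0 (n = 4) in young libraries, with a log2 fold change of -0.09 (SE 0.12) and an adjusted p of 0.649. Itga4 (alpha 4) was 381 ± 103 CPM in aged and 476 ± 50.3 in young libraries, with a log2 fold change of -0.32 (SE 0.19) and an adjusted p of 0.274. The aged Itga4 values ranged from 278 to 484 CPM and overlapped the young range of 412 to 522 CPM. For both genes the difference was within the spread between replicates.

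The remaining alpha subunits were low. The collagen and laminin receptor chains Itga1, Itga2, Itga3, Itga7 and Itga10 had group means of 1.69 to 6.56 CPM and were not called in any alternative. Itga3 was higher in every aged library than in every young one, at 6.56 ± 1.09 against 4.86 ± 0.66 CPM, with an adjusted p of 0.171. Itga8 had 5 to 11 counts in aged and 5 to 15 in young libraries, Itga11 had 0 to 5 and 1 to 3, and neither was tested.

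Among the beta subunits, Itgb8 (chr12:119158022-119238802) pairs only with alpha V. It was 68.3, 34.0 and 60.6 CPM in aged and 30.4, 30.8, 25.1 and 16.7 CPM in young libraries. The groups did not overlap, but aged replicate 2 was only slightly above the highest young library. Itgb8 rose by a log2 fold change of 1.08 (SE 0.27, adjusted p = 0.0306). It was called in 12 of 17 alternatives, and lost the call without aged replicate 1 or 3 or young replicate 1, 3 or 4, with adjusted p from 0.0547 to 0.0992.

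Itgb3 (chr11:104608000-104670476), the beta 3 chain of the vitronectin receptor and of the platelet fibrinogen receptor, was 34.4, 34.6 and 28.1 CPM in aged and 59.8, 54.3, 57.3 and 60.8 CPM in young libraries. The spread within each age was small beside the gap. It fell by 0.84 on the log2 scale (SE 0.10, adjusted p = 0.00193). The summed platelet markers were higher in the aged libraries, and the summed mast cell and basophil markers, given below, were lower. The part of these cells in the Itgb3 values was not tested.

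Itgb7, the partner of Itgae and Itga4, was 488 ± 49.99 CPM in aged and 586 ± 41.6 in young libraries. Every aged library was below every young one, by little, and the log2 fold change of -0.27 (SE 0.12) had an adjusted p of 0.162. Itgb2, the beta chain of LFA-1, was 419 ± 43.8 against 479 ± 37.8 CPM, with a log2 fold change of -0.19 and an adjusted p of 0.301. Itgb1, which pairs with most alpha chains, was 243 ± 17.2 against 248 ± 29.3 CPM, with a log2 fold change of -0.03 and an adjusted p of 0.887. Itgb5 was 7.54 ± 2.71 against 9.66 ± 1.30 CPM, with an adjusted p of 0.352. Itgb4 had 5 to 10 counts in aged and 7 to 13 in young libraries and was not tested.

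**Figure D2:**
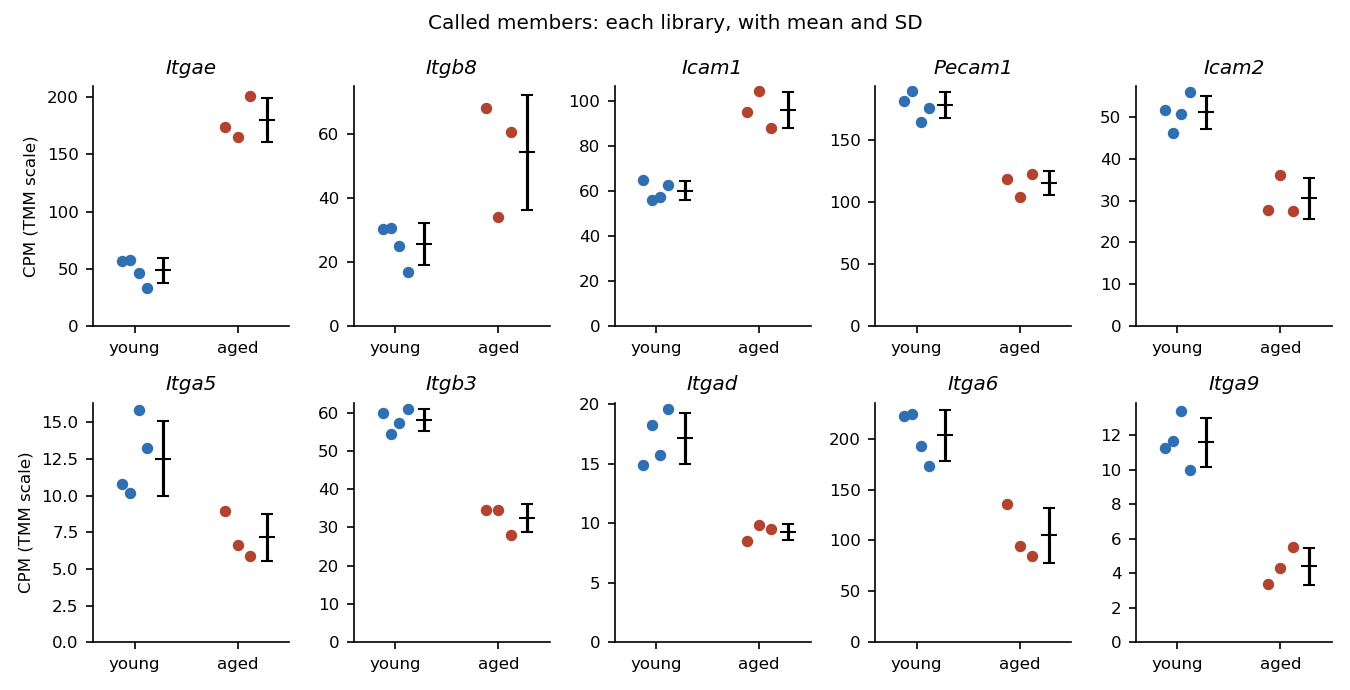
CPM on the TMM scale (vertical axes, each from 0) of the 10 called genes in the 4 young and 3 aged libraries, 1 point per library, with the mean and SD beside the points. No gene has overlapping groups, and the aged points of Itgae, at 165 to 201 CPM, stand farthest above the young ones, at 33.4 to 57.6 CPM.

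Levels of different genes were compared per kilobase of annotated exon (CPM per kb). In young libraries Itgb7 (212 CPM per kb), Itgb2 (157), Rap1b (106), Selplg (106), Itgal (97.0) and Tln1 (96.4) were the highest of the 34 genes, and in aged libraries Itgb7 (176 CPM per kb) and Itgb2 (137) again led. Itgae rose from 10.6 to 39.3 CPM per kb, above Itga4, which was 34.0 in young and 27.2 in aged libraries. The level of Itga6 was 22.5 CPM per kb in young and 11.6 in aged libraries.

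As a share of the summed level of all 18 alpha subunits, Itgae was 5.65% ± 0.99 (SD, n = 4) in young and 20.7% ± 2.68 (n = 3) in aged libraries. On this scale per kilobase, which depends on the annotated exon lengths, it was the fourth alpha subunit in young and the second in aged libraries. Itgal stayed first, with 52.2% ± 1.71 and 48.1% ± 4.04. Itga4 was 18.3% ± 1.30 and 14.2% ± 2.69, and Itga6 was 12.1% ± 0.75 and 6.07% ± 1.11. Of the 8 beta subunits Itgb7 was 47.6% ± 1.24 in young and 45.6% ± 2.53 in aged libraries, Itgb2 35.3% ± 0.40 and 35.6% ± 1.59, and Itgb1 13.7% ± 1.10 and 15.5% ± 1.91. The shares of Itgb8 and Itgb3 did not overlap between the ages, while those of Itgb5 and Itgb4 did. Itgb8 was 0.355% to 0.625% in young and 0.768% to 1.54% in aged libraries, and Itgb3 was 1.88% to 2.42% in young and 1.34% to 1.46% in aged libraries.

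**Figure D3:**
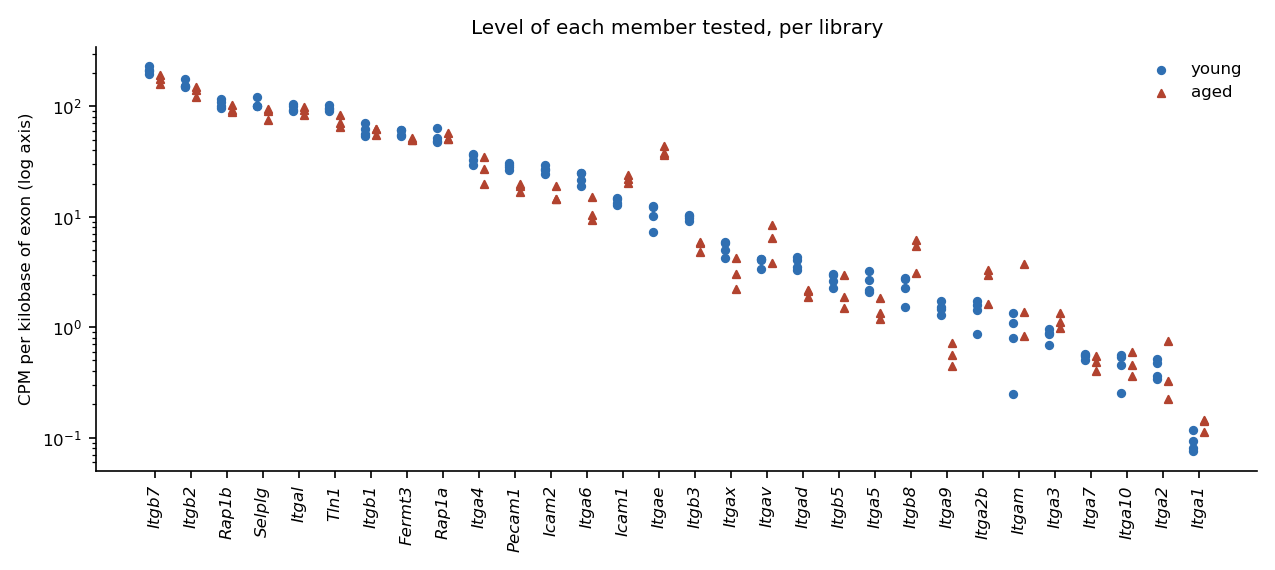
CPM per kilobase of exon (vertical axis, log scale) of each of the 30 genes tested, in order of the young level, 1 point per library. Itgb7 and Itgb2 lead in both ages, and the aged points of Itgae lie near those of Itga4, with group means of 39.3 and 27.2 CPM per kb.

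Among the ligands and counter-receptors, Icam1 (chr9:21015985-21028817), the inducible ligand of LFA-1, was 95.3, 104 and 88.4 CPM in aged and 65.1, 55.9, 57.6 and 62.6 CPM in young libraries. All aged libraries were above all young ones. It rose by a log2 fold change of 0.67 (SE 0.096, adjusted p = 0.00339) and was called in all 17 alternatives. Other annotated genes overlap 11.7% of its exon bases.

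Icam2 (chr11:106377656-106388075), the constitutive LFA-1 ligand of resting lymphocytes and endothelium, moved the opposite way. It was 27.8, 36.2 and 27.5 CPM in aged and 51.6, 46.2, 50.7 and 55.9 CPM in young libraries. It fell by 0.74 on the log2 scale (SE 0.13, adjusted p = 0.00714).

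Pecam1 (chr11:106654217-106750628), or CD31, binds itself between cells and is known as a marker of naive T cells and endothelium. It was 119, 104 and 123 CPM in aged and 182, 189, 165 and 176 CPM in young libraries, again without overlap. It fell by 0.63 on the log2 scale (SE 0.099, adjusted p = 0.00519). The 7 endothelial markers summed to 12.4 to 17.4 CPM in aged and 10.7 to 14.95 CPM in young libraries. None of the 5 tested was called, and Emcn had at most 2 counts in any library and 0 in 5 of 7.

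Selplg encodes PSGL-1, the selectin ligand of leukocytes. It was 372 ± 43.7 CPM in aged and 452 ± 46.7 in young libraries. The groups did not overlap, and the log2 fold change of -0.28 (SE 0.13) had an adjusted p of 0.174.

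Of the activation machinery, Tln1 (talin-1) was 816, 695 and 643 CPM in aged and 1010.1, 891, 927 and 952 CPM in young libraries. Every aged library was below every young one. The log2 fold change of -0.40 (SE 0.13) had an adjusted p of 0.0651, and without aged replicate 1 it was -0.50 with an adjusted p of 0.0257. DESeq2 gave an adjusted p of 0.00755 and limma voom of 0.0358.

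Fermt3 (kindlin-3) was 292 ± 5.67 CPM in aged and 333 ± 24.0 in young libraries, without overlap, with a log2 fold change of -0.19 and an adjusted p of 0.22. The GTPases Rap1a and Rap1b were 139 ± 9.94 and 274 ± 21.7 CPM in aged, against 137 ± 19.0 and 305 ± 23.7 CPM in young libraries. Their adjusted p were 0.955 and 0.354. The sign of Itgal, Itgb1, Rap1a, Itga2 and Itga10 differed between alternatives, and none of them was called in any.

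The balance of partner genes was measured as the log2 ratio of their counts within a library, which does not depend on library size. The question was whether subunits that share a partner, or genes that share a role, shifted against each other with age. In 6 of 11 pairs the aged and young ratios did not overlap, where 29.9% of single genes did not overlap and no share over all ratios was computed. A two-sided exact permutation test over the 35 splits of 3 against 4 libraries can give no p below 0.0571, so no pair can pass 0.05, and after adjustment over the 11 pairs the lowest value was 0.105. The pairs are therefore given as sizes.

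The ratio of Itgae to Itga4, which both pair with Itgb7, moved the most. Per kilobase it was 1.10, 1.81 and 1.61 in aged and 0.329, 0.382, 0.280 and 0.248 in young libraries. On that scale Itgae was above Itga4 in each aged library and below it in each young one. This order rests on the annotated exon lengths, 4581 bases for Itgae and 13978 for Itga4. By counts alone Itgae was below Itga4 in every library, with log2 ratios of -1.48, -0.75 and -0.92 in the aged ones. The log2 ratio was higher by 2.27 in aged libraries.

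Icam2 per Icam1 went from 1.81 to 2.04 in young to 0.669 to 0.794 in aged libraries per kilobase, a log2 difference of -1.42. Per kilobase the order of these LFA-1 ligands was thus opposite in each aged and each young library. This order rests on the annotated exon lengths, 1904 bases for Icam2 and 4360 for Icam1. By counts alone Icam2 was below Icam1 in every library, with log2 ratios of -0.34 to -0.16 in the young ones. Again per kilobase, Itgb3 per Itgav was 2.25 to 3.03 in young and 0.57 to 1.54 in aged libraries, a difference of -1.43 on the log2 scale. Itga2b per Itgb3, the platelet pair, was 0.0953 to 0.169 in young and 0.278 to 0.698 in aged libraries, a log2 difference of 1.73.

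Itga6 per Itgb1 was 0.339 to 0.435 in young and 0.151 to 0.244 in aged libraries, a log2 difference of -0.95. The Rap1b to Rap1a ratio was 1.8296 to 2.317 in young and 1.734 to 1.8283 in aged libraries, so the groups nearly touched. The log2 difference between the group means was only -0.18. These 6 pairs each had an exact p of 0.0571. The other 5 pairs overlapped: Itgb7 to Itgb1 differed by -0.24 on the log2 scale (exact p = 0.171), Itgal to Itgb2 by 0.11 (exact p = 0.114), Itgam to Itgal by 1.21 (exact p = 0.229), Itgav to Itgb8 by -0.47 (exact p = 0.171) and Fermt3 to Tln1 by 0.21 (exact p = 0.171).

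**Figure D4:**
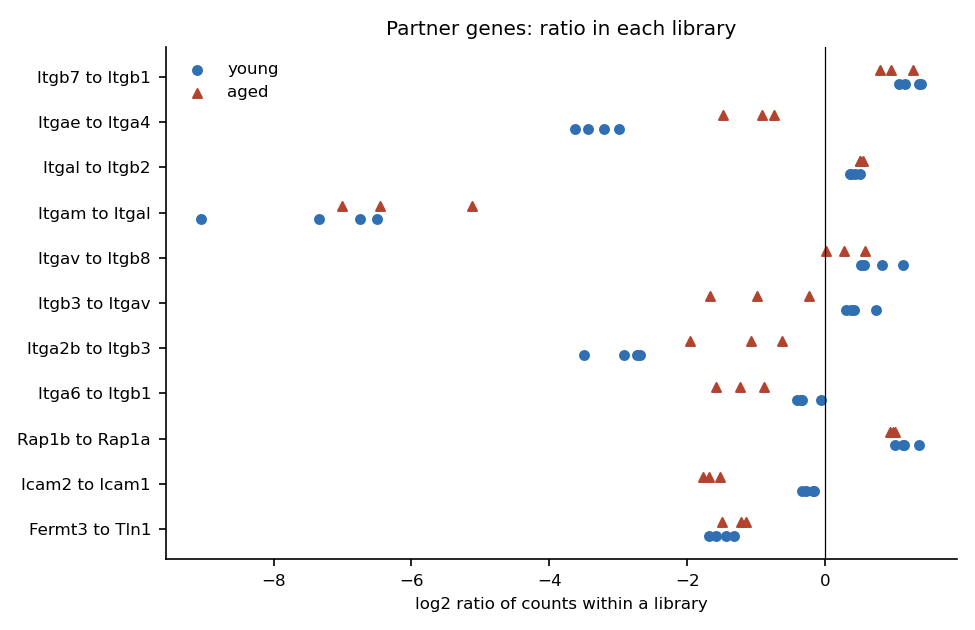
Log2 ratio of counts within a library (horizontal axis) for the 11 partner pairs, 1 point per library, with the line at equal counts. Young and aged points are apart in 6 pairs, and the Itgae to Itga4 ratio differs by 2.27 between the group means.

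The wider adhesion pathway was read from 5 lists of 145 other genes, of which 125 were tested. Of these 19 rose and 19 fell (30.4% called, against 16.7% of all genes tested), with a median log2 fold change of 0.03. These counts depended on single libraries and were 20 and 30 without aged replicate 1, 10 and 10 without aged replicate 2, 14 and 8 without aged replicate 3, 8 and 8 without young replicate 1, 8 and 11 without young replicate 3, and 9 and 10 without young replicate 4.

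In the talin, kindlin and RAP1 list 2 of 25 genes rose and 7 fell, with a median log2 fold change of -0.19. The guanine nucleotide exchange factors Rasgrp1 and Rasgrp2, of which Rasgrp2 (CalDAG-GEFI) loads RAP1, fell by 0.90 and 0.85 on the log2 scale (adjusted p = 0.00262 and 0.00752). Cytip fell by 0.75, Cyth1 by 0.49, Stk4 by 0.44 and Apbb1ip, the RIAM adaptor between RAP1 and talin, by 0.43. With 1 library left out these calls held in 1, 3, 2 and 2 of 7 fits, with adjusted p up to 0.145, 0.079, 0.0981 and 0.0709, each time highest without aged replicate 3, while those of Rasgrp1 and Rasgrp2 held in all 7. Rassf5 (RAPL) had a log2 fold change of -0.09 and an adjusted p of 0.623.

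In the focal adhesion list 4 of 30 genes rose and 6 fell, with a median of -0.12. The kinase gene Src and the paxillin relative Lpxn rose by log2 fold changes of 0.98 and 0.81, and Actn1, Crkl and Csk fell by 0.91, 0.64 and 0.59. Among selectins and the enzymes that build their ligands 1 of 18 rose and 3 fell, with a median of -0.11. Chst2 rose by 0.58, a call that held in 2 of 7 fits with 1 library left out (adjusted p up to 0.132), C1galt1 fell by 0.64, and Cd44 had a log2 fold change of 0.29 and an adjusted p of 0.0888.

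Of the integrin ligands and counter-receptors outside the 34 genes 3 of 25 rose and 1 fell, with a median of 0.75. The share called, 16%, was near the 16.7% of all genes tested. Vcam1, the ligand of alpha 4 beta 1, fell by 0.56 (adjusted p = 0.0139), and Cdh1, the E-cadherin ligand of CD103, was 0.71 ± 0.143 CPM in aged and 0.87 ± 0.196 in young libraries, with an adjusted p of 0.65. Of the integrin-associated membrane proteins 9 of 27 rose and 2 fell, with a median of 0.27. Tspan3, Alcam, Sema7a and Cd82 rose by log2 fold changes of 1.11, 0.94, 0.70 and 0.47, and Cd96 fell by 0.53. With 1 library left out the calls of Tspan3 and Alcam held in all 7 fits, and those of Sema7a, Cd82 and Cd96 in 3, 2 and 3, with adjusted p up to 0.0709 (without young replicate 1), 0.132 and 0.118 (both without aged replicate 3).

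The markers of other cells that could carry integrins were read in the same libraries. Beside the lists above, mast cell and basophil markers summed to 13.9 to 19.9 CPM in aged and 32.7 to 68.4 CPM in young libraries, with Cpa3 and Kit lower among 4 tested and Fcer1a at 0 in aged replicate 3 and young replicate 4. NK markers summed to 26.7 to 39.1 and 37.9 to 53.3 CPM (0 of 5 higher, 1 lower), CD8 T cell markers to 45.3 to 81.8 and 48.7 to 92.6 CPM (none of 2 called), B cell markers to 897 to 1672 and 1344 to 2026 CPM (none of 7 called) and plasma cell markers to 568 to 1144 and 228 to 1838 CPM (none of 5 called). Stromal markers summed to 9.34 to 23.1 and 5.76 to 10.3 CPM (1 of 5 higher), none of 7 erythroid markers was called, and the 9 T cell and Treg markers summed to 3858 to 4308 and 3097 to 4462 CPM (1 higher). The part of these cells in the values of the integrin genes was not tested.

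**Figure D5:**
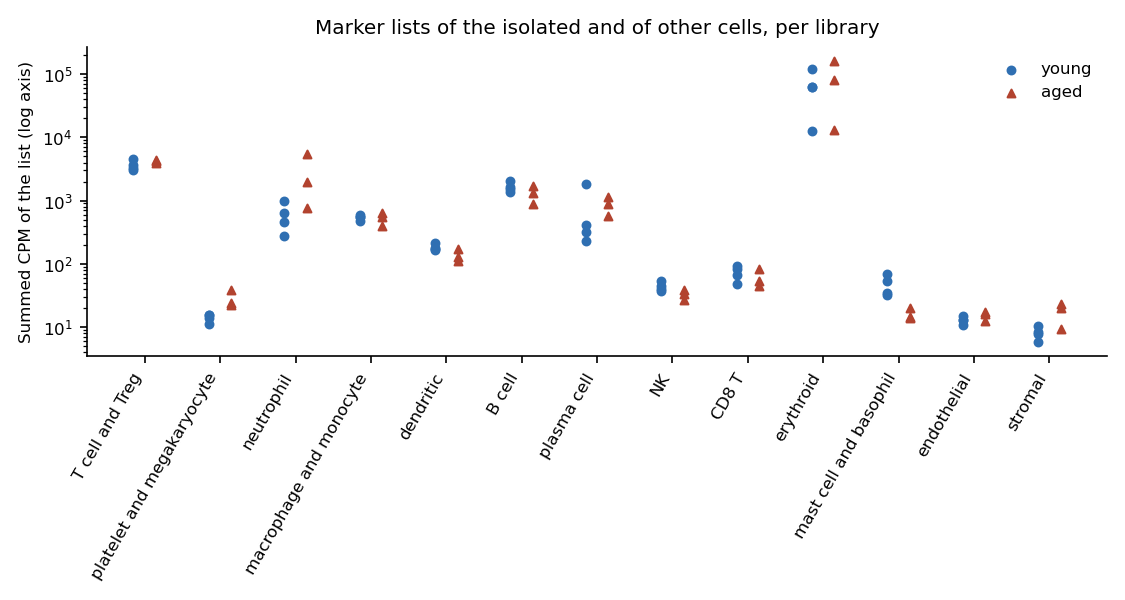
Summed CPM (vertical axis, log scale) of each list of cell type markers, 1 point per library, for young and aged libraries. Platelet sums are apart, at 22.0 to 38.0 CPM in aged and 11.2 to 15.5 in young libraries, as are mast cell and basophil sums, while the neutrophil sums overlap and are highest in aged replicate 1 (5437 CPM).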

How the data were processed

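RNA-sequencing of splenic CD4+CD25+ cells was analysed in 3 aged and 4 young libraries, grouped by GEO's labels. The study's methods give another age for its young mice than the labels, which are followed here. Libraries came from a SMART-Seq protocol without molecular identifiers, so the limit of 3 counts given here covers counting error only. The standard errors, SDs and p-values also include the variation between libraries. The authors deposited raw read counts per Ensembl gene, in the layout and naming of an HTSeq table in union mode without strand. The submitters' processing notes name the mm10 build, and the aligner is not given in the sources used here. The lines of reads on no gene or several genes (13.1% to 20.9% of reads) were left out. The authors also deposited a series table whose signal values are these counts over 1 size factor per library, which was checked. Its fold changes and p-values hold the authors' own comparison and were not used.

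The ages were tested with the quasi-likelihood method of edgeR 4.0.16 (under R 4.3.3), after filterByExpr by group and TMM scaling, without covariates. Genes with a Benjamini-Hochberg adjusted p under 0.05 over all 13904 genes tested were called. Each standard error is the size of the log2 fold change divided by the square root of F. CPM are given as mean ± SD over libraries. Positions and exon lengths are from GENCODE M21 on GRCm38, the assembly of mm10. Ratios of partner genes (0.5 added to counts) were tested with a two-sided exact permutation test in scipy 1.17.1. Tests were checked on simulated data.

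The 34 genes and all lists were chosen with earlier results of these data known. Called genes and genes whose call changed in an alternative are given per library, and from each other list at most 5 called genes with the largest change and a mean of 10 CPM or more are named, beside Cd44, Rasgrp2, Apbb1ip, Rassf5, Vcam1, Cdh1, Foxp3, Cd4 and Il2ra. The result of 1 further gene of this rule is not reported here. The 17 alternatives were DESeq2 1.42.0, limma 3.58.1 (voom, and trend with a prior count of 2), RLE factors, library size only, no filter, a minimum of 10 counts per library, removal of mitochondrial, haemoglobin and immunoglobulin genes, GC content and gene length trends removed, the same with equal weights (chosen after seeing the data), and each library left out in turn. The replicate number as a block and a log2 fold change of at least 1 were tried beside them.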

Additional observations from a re-analysis of the deposited data

Results flagged for a closer look

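In the young group of 4 libraries, single libraries stood apart from the others in 3 of the 41 genes and ratios looked at, where chance alone flags about 1 in 20. Itgav was 36.5 CPM in young replicate 4, below the other young libraries at 44.1 to 44.9 CPM. Itgb2 was 535.2 CPM in young replicate 2, above the others at 453 to 466 CPM, and Selplg was 521.8 CPM in the same library, above the others at 426 to 433 CPM. With all 7 libraries none of these 3 genes was called between the ages by edgeR, and without young replicate 2 the adjusted p stayed above 0.05 for Itgb2 and Selplg.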

How the results depend on the processing

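Of the 10 called integrin and adhesion genes 8 were called in all 17 alternatives beside the replicate block (all but Itga5 and Itgb8), and all 10 kept their direction in them. Of the 20 others 4 (Itga2b, Itgav, Itgax and Tln1) were called in some alternative and 16 in none. The 3 genes called higher became 5 with DESeq2, 5 with GC content and gene length trends removed and 5 with the same at equal weights. Leaving out 1 library at a time gave 2 to 4 higher and 6 to 8 lower. Requiring a log2 fold change of 1 or more in size left 1 of the 7 lower genes. For the other adhesion lists, the 19 genes called higher became 10 with library size only and 12 with no filter on low counts, and leaving out 1 library gave 8 to 20 higher and 8 to 30 lower, the extremes of the latter without aged replicate 1 (30) and without aged replicate 3 or young replicate 1 (8). The cause of these changes was not tested, except that fewer libraries enter each of the last fits. All genes called numbered 2327, and 1237 to 3058 with 1 library left out.

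The replicate numbers did not pair the samples: deviations of same-numbered aged and young libraries correlated at -0.091, -0.292 and -0.138. With the number as a replicate block, 1 gene (Itgae) was called higher and 2 (Itga9 and Itgb3) lower, 2 of the other adhesion genes were higher and 2 lower, and 292 genes were called in all. Itga8, Itga11 and Itgb4 were removed by the filter on low counts, Itgb6 had no count, and the exact test of ratios cannot pass 0.05 at 3 against 4 libraries.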

Other observations

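Among the ligands of the integrins described, 3 genes that rose in aged libraries fell outside the rule for named genes, by a mean under 10 CPM, and were chosen after their values were seen. Spp1 encodes osteopontin, a ligand of integrins with the alpha V, alpha 4 and alpha 9 chains. It had 249, 92 and 400 counts in the aged libraries and 8, 4, 2 and 6 in the young ones. The log2 fold change was 5.86 (SE 0.57, adjusted p = 0.000889), and it was called in all 16 alternatives that tested it (the minimum of 10 counts in every library removed it). Other annotated genes overlap 18.8% of its exon bases. Npnt (nephronectin, a ligand of alpha 8 beta 1) was 9.10 ± 0.798 CPM in aged and 3.63 ± 0.59 in young libraries, with a log2 fold change of 1.32 and an adjusted p of 0.00326. Col1a2, a chain of the collagen bound by alpha 1 and alpha 2 integrins, was 11.6 ± 7.18 against 3.804 ± 0.476 CPM, with a log2 fold change of 1.60 and an adjusted p of 0.0278. That call held in 3 of 7 fits with 1 library left out, and the fit lacking aged replicate 2 gave a value of 1.02 on the log2 scale (adjusted p = 0.0715). The summed stromal markers were 9.34 to 23.1 CPM in aged and 5.76 to 10.3 CPM in young libraries. Selp, which encodes P-selectin, the main partner of PSGL-1, had 17, 2 and 8 counts in aged and 40, 68, 40 and 40 in young libraries and fell by 2.10 on the log2 scale (adjusted p = 0.0235), a call that held in 4 of 7 such fits (adjusted p = 0.0817 without aged replicate 3). It was also chosen after its values were seen. The cell source of these transcripts was not tested.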
